A study of Mus musculus with 6 samples.

Results

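Amino acid solute carriers were compared between endothelial cells of normal mouse brain and endothelial cells of high-grade glioma. The carriers were taken as every gene symbol that starts with Slc1a, Slc3a, Slc6a, Slc7a, Slc36a, Slc38a or Slc43a followed by a number, which gave 64 of 24421 genes in the deposited tables. Endothelial cells had been sorted from the brain of C57BL/6 mice in 3 normal libraries and, 3 weeks after GL26l glioma cells were injected into the brain of congenic mice, from the tumor in 3 glioma libraries. The question was how tumor vessels differ from non-tumor brain vessels. Sort markers, age, number of animals and pooling were not given in the labels, and all glioma libraries come from tumors of the same injected line. The 3 RNA sets per group are called independent, but nothing ties them to separate animals, so every p-value below reflects variation among these samples, and that variation may be technical.

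The endothelium of the brain is sealed by tight junctions, so amino acids reach the neural tissue through carriers in the endothelial membranes. Large neutral amino acids pass by exchange through LAT1, a heterodimer of the light chain Slc7a5 and the glycoprotein heavy chain Slc3a2, while sodium-coupled carriers of the Slc38 and Slc1 families move glutamine, small neutral amino acids and glutamate against their gradients. Cationic amino acids enter through Slc7a1 and its relatives, and the Slc6 family carries taurine, creatine, glycine and several neurotransmitters. Not every symbol in the set is a carrier of amino acids in the strict sense. Slc43a3 transports purine nucleobases, Slc6a8 transports creatine, and Slc7a6os, Slc36a1os and Slc6a19os are neighbouring genes on the opposite strand that share the name of a carrier.

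Each library holds 1 deposited log2 value per gene, read as log2(x + 1) of values normalized to a common distribution, and sequencing depth is unknown. The values are not divided by transcript length, so each gene was compared with itself across libraries. Shares of summed values and the gap between Slc7a5 and Slc3a2 do set genes side by side. Their size may depend on transcript length, so they are read only across libraries. Libraries differed in how many genes were above 0, from 7446 in normal replicate 1 to 13108 in glioma replicate 1, and the lowest value above 0 was 7.43 in normal replicate 1 against 0.22 to 5.22 in the others. All 15 endothelial markers were above 0 in every library. Normal replicates 2 and 3 resembled each other closely (Pearson's r = 0.97 across 5880 genes above 0 in all libraries, which are not independent replicates), while normal replicate 1 reached 0.58 and 0.60 with them. The deposited column names of normal replicates 2 and 3 end in the same number, and glioma replicates 2 and 3 share another. Neither number occurs in both groups, so whatever these numbers record and the group cannot be told apart.

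Of the 64 members, 47 were above 0 in at least 1 library, 17 were listed at 0 in all 6, and 15 were above 0 in all 6. Testing required that a gene reach 1 or more after back-transformation in 3 or more libraries, which 34 members and 11862 genes in all passed. No member passed the limma test at a Benjamini-Hochberg adjusted p of 0.05 over all genes, and no other gene did (0% of genes, smallest adjusted p = 0.875). An unadjusted p under 0.05 was reached by 2 of the 34 members, Slc38a1 and Slc38a2, beside 4.29% of all genes tested. All glioma values exceeded all normal values (wholly higher) for 2 members (5.88%), beside 6.91% of all genes, and all were under them (wholly lower) for 1 member (2.94%), beside 6.37% of all genes. These shares are near those of all genes, so the set as a whole did not stand out. An exact permutation test of 3 against 3 libraries cannot give a two-sided p below 0.1, so the single-gene values below are descriptions beside the limma result.

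The members whose groups did not overlap were all in the Slc38 family, which carries glutamine and small neutral amino acids with sodium. Slc38a1 and Slc38a2, which encode the system A carriers SNAT1 and SNAT2, stood higher in every glioma library, and Slc38a5, which encodes the system N glutamine carrier SNAT5, stood lower. The stretches of reference sequence that follow lie before the RefSeq start of the 2 members that were above 0 in all libraries and had groups that did not overlap, and are shown to place these genes. For Slc38a5 other annotated transcripts start further upstream, so its stretch lies within the gene as GENCODE draws it, after the first exon of those transcripts. They were cut from RefSeq promoter windows (GRCm38.p6, 250 bases before to 50 after the start) so that no annotated exon is included, and run 5′ to 3′ in the direction of the gene. Capitals mark matches on either strand to the antioxidant response element TGACNNNGC or to ACGTG, the core that hypoxia-inducible factors bind.
Slc38a2, chr15:96699731-96699978, minus strand: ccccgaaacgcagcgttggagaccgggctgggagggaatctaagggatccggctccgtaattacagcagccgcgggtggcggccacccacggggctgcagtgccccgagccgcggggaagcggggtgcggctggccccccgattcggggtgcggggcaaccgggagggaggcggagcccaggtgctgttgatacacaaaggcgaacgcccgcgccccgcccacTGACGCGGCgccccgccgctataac
Slc38a5, chrX:8271261-8271380, plus strand: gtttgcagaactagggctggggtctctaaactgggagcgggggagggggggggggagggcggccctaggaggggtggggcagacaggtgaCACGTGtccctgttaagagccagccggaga

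In the Slc38a5 stretch the 2 ACGTG matches, one on each strand, overlap in a single palindrome. Neither stretch held TGATGNAA, the core of the amino acid response element that ATF4 binds with its partners. Sequence outside the promoter windows was not searched, so these genes may hold a match elsewhere. Over the whole 300-base windows, ACGTG was found for 16 of 46 member genes with a window (34.8%) and in 19.6% of all 32851 windows. TGACNNNGC was found for 9 of 46 (19.6%) and in 12.4% of windows, and TGATGNAA for 3 of 46 (6.52%), Slc1a4, Slc7a7 and Slc7a11, and in 3.97% of windows. Some genes have several windows, so the share of genes and the share of windows are not the same measure, and a match is only a description of the letters.

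Slc38a1 (chromosome 15, 96571418 to 96642913) read 0, 4.45 and 2.32 in normal against 11.95, 10.13 and 9.51 in tumor endothelium (replicates 1, 2 and 3 in that order, here and below). The lowest glioma library lay 5.06 above the highest normal library on the log2(x + 1) scale, the widest gap of the 3 members that did not overlap. The fitted difference, glioma minus normal, was 8.27 (SE 1.99, limma adjusted p = 0.875). It was 7.15 without normal replicate 1, where the gene is listed at 0, and 3.10 when every value under 7.43 was raised to that shared floor. Slc38a1 ranked 8 of 11862 genes by unadjusted p.

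Slc38a2 lies beside Slc38a1 on the same strand of chromosome 15 (96687392 to 96699730). It read 10.73, 10.12 and 10.43 in normal (mean 10.43 ± 0.31 SD, n = 3) against 11.43, 11.29 and 11.94 in tumor endothelium (11.55 ± 0.35 SD, n = 3). The difference was 1.13 (SE 0.47, limma adjusted p = 0.875), and the groups were separated by 0.55, with little spread within either group. Slc38a4, the next carrier gene along that strand, was listed at 0 in 5 libraries and at 8.70 in glioma replicate 1, and was not tested.

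The system N carriers Slc38a5 and Slc38a3 both had a difference below 0, and neither passed the limma test. Slc38a5 (X chromosome, 8271133 to 8280179) was at 11.99, 11.66 and 11.44 in normal against 11.08, 10.49 and 10.60 in tumor endothelium, a difference of -0.97 (SE 0.45, limma adjusted p = 0.875) with a gap of 0.36 between the groups. Slc38a3 (chromosome 9, 107650634 to 107669530), which encodes SNAT3, was at 12.07, 14.42 and 14.26 in normal against 9.38, 12.58 and 13.39 in tumor endothelium. Its groups overlapped through normal replicate 1, and the difference was -1.80 (SE 1.05, limma adjusted p = 0.875). Within replicates 2 and 3 alone both glioma values lay below both normal values, with a difference of -1.36.

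**Figure D1:**
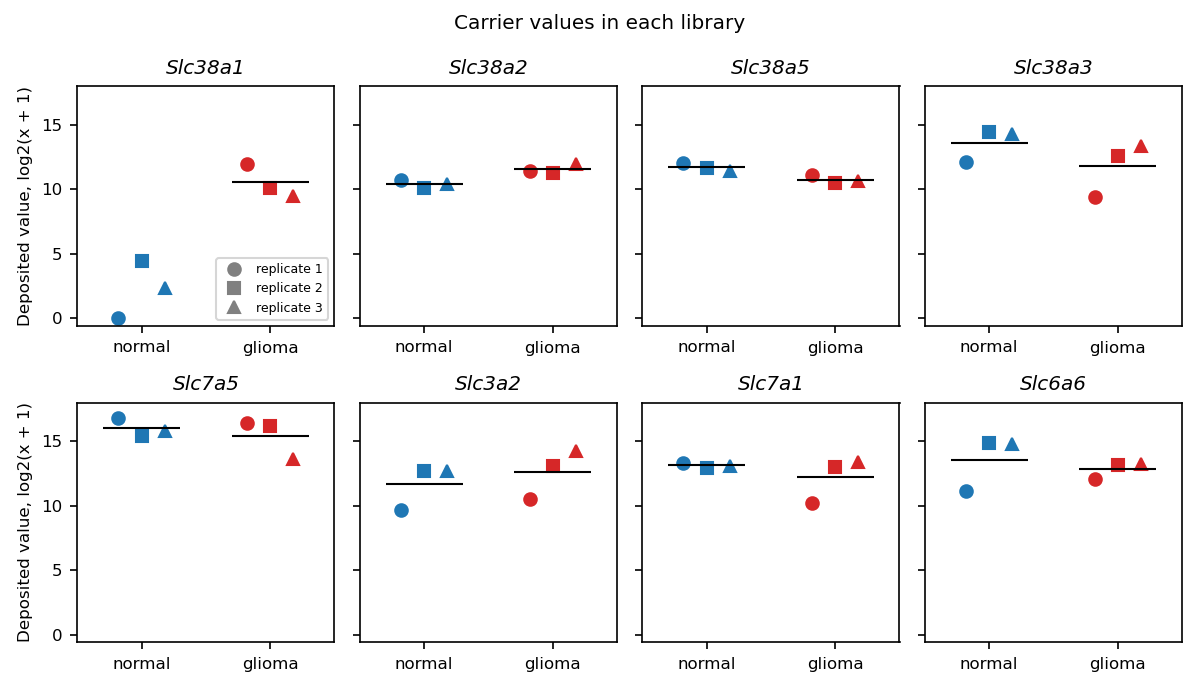
Deposited log2(x + 1) values (vertical axis) of 8 carriers in the normal (blue) and glioma (red) libraries; the marker shape gives the replicate, and horizontal lines are group means where no library is at 0. Slc38a1 stands at 0 to 4.45 in normal against 9.51 to 11.95 in tumor endothelium, while Slc7a5, Slc3a2, Slc7a1 and Slc6a6 overlap between the groups.

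The other tested Slc38 members overlapped between the groups. Slc38a9, the lysosomal arginine sensor of the mTORC1 pathway, was at 9.94, 8.57 and 8.51 in normal against 8.70, 8.87 and 6.67 in tumor endothelium. Slc38a10, which encodes a glutamate and glutamine carrier, was at 13.41, 10.63 and 11.47 in normal against 12.24, 10.97 and 6.26 in tumor endothelium, where glioma replicate 3 was the lowest of all 6. In both genes the differences (-0.93, SE 0.97, and -2.02, SE 1.43) fell short of the limma threshold, as did those of Slc38a6, Slc38a7 and Slc38a11, which were each at 0 in normal replicate 1. Together the Slc38 genes made up 0.131%, 0.167% and 0.159% of the summed back-transformed values of the normal against 0.0899%, 0.0811% and 0.102% of glioma libraries. All glioma sums lay below all normal sums. The share of this sum that came from Slc38a3 was 19.6%, 77.2% and 72.5% in normal against 4.37%, 44.3% and 62.0% in tumor endothelium, so the sum follows few genes.

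The subunits of LAT1 did not differ beyond their spread. Slc7a5 (chromosome 8, 121881150 to 121907694) was at 16.83, 15.40 and 15.83 in normal against 16.39, 16.15 and 13.65 in tumor endothelium, with glioma replicate 3 below all others. The difference was -0.62 (SE 0.86, limma adjusted p = 0.893), and it was 0.25 without glioma replicate 3. Slc3a2 (chromosome 19, 8706882 to 8723369) was at 9.66, 12.70 and 12.71 in normal against 10.54, 13.10 and 14.27 in tumor endothelium, a difference of 0.94 (SE 1.09, limma adjusted p = 0.878) that was -0.071 without normal replicate 1. Slc3a2 was lowest in replicate 1 of both groups, and without both the difference was 0.98. The light and heavy chain did not move together across libraries. Their log2 gap, Slc7a5 minus Slc3a2, was 7.17, 2.70 and 3.12 in normal against 5.85, 3.05 and -0.62 in tumor endothelium, so it was widest in replicate 1 of both groups and narrowest in glioma replicate 3.

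The share of the summed signal of the 64 members held by Slc7a5 varied between libraries. It was 14.4% in glioma replicate 3, 59.9% and 69.7% in glioma replicates 2 and 1, and 34.2% to 69.9% in the normal libraries. The members held 0.995%, 0.743% and 0.826% of the summed values of normal against 0.726%, 0.712% and 0.525% of glioma libraries, so the glioma sums were all lower. Without Slc7a5 the sums overlapped, at 0.2996%, 0.489% and 0.484% in normal against 0.220%, 0.286% and 0.450% in tumor endothelium.

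Cationic amino acid carriers overlapped between the groups. Slc7a1, which encodes CAT1, the main arginine and lysine carrier of many cells, was at 13.32, 12.95 and 13.09 in normal against 10.18, 13.03 and 13.40 in tumor endothelium. Only glioma replicate 1 stood apart, and the difference of -0.91 (SE 0.80) became 0.10 without it. Slc7a2, the relative induced in activated macrophages, was at 8.81, 7 and 7.19 in normal against 7.43, 9.19 and 11.12 in tumor endothelium (difference 1.58, SE 1.15, limma adjusted p = 0.875). In glioma replicate 3, where Slc7a2 was highest, 11 of 14 microglia and macrophage markers were above 0 with a summed log2 level of 13.53. In glioma replicate 1, where Slc7a2 was lowest of that group, 12 were above 0 with a summed level of 9.46, and in glioma replicate 2 the values were 2 and 8.001. In the normal libraries 5, 6 and 8 were above 0 with a summed level of 6.998 to 11.26. Ptprc and Itgam of that list were at 0 in glioma replicate 3. The part of such cells in the Slc7a2 values was not tested. Slc7a3 was at 0, 7.03 and 7.50 in normal against 2.22, 9.49 and 10.66 in tumor endothelium, and so was low in replicate 1 of both groups.

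No other tested Slc7 member had groups that did not overlap. Slc7a7, the y+LAT1 chain of cationic amino acid export, was at 10.54, 8.90 and 8.47 in normal against 6.79, 9.27 and 10.10 in tumor endothelium, with full overlap. Slc7a8, the LAT2 chain, read 0, 6.70 and 6.71 in normal against 4.01, 5.53 and 6.48 in tumor endothelium. Slc7a11, the cystine and glutamate exchanger xCT, was at 0, 2.84 and 3.03 in normal against 0, 5.31 and 5.75 in tumor endothelium. All 3 fell short of the limma threshold, and the apparent order for Slc7a11 in replicates 2 and 3 lies at low values. Slc7a14, a lysosomal member, ranged from 1.81 to 7.54 over the 6 libraries with no separation (difference -0.66, SE 2.49). Slc7a6 was above 0 in 1 normal and 2 glioma libraries, and Slc7a10 in 2 of each. Slc7a6os, whose exons do not overlap those of Slc7a6, was at 0 in normal replicate 1 and at 6.79 to 8.46 in the others. Reads of some members could be shared with a gene on the other strand, since the labels do not give the use of strand in counting. Exons of Slc7a7 overlap those of Oxa1l on the opposite strand, exons of Slc7a10 those of Lrp3 and exons of Slc6a9 those of B4galt2 and Ccdc24, and Slc1a1, Slc1a2, Slc6a6, Slc7a2, Slc38a9, Slc38a10 and Slc43a2 overlap predicted genes there.

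Slc43 carriers move large neutral amino acids without sodium. Slc43a2, which encodes LAT4, was at 9.77, 10.10 and 10.07 in normal against 7.76, 10.66 and 7.99 in tumor endothelium, where 2 lay below the normal range and 1 above it (difference -1.18, SE 0.87, limma adjusted p = 0.875). Slc43a1, which encodes LAT3, was at 0 throughout the normal group and also in glioma replicate 3, and stood at 10.20 and 5.77 in glioma replicates 1 and 2. Slc43a3 was at 0, 8.35 and 8.02 in normal against 5.25, 8.21 and 10.09 in tumor endothelium.

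Of the 5 tested glutamate and neutral amino acid carriers of the Slc1 family, 4 had a difference below 0 and 1 above. All 5 overlapped between the groups. Slc1a1, which encodes the glutamate carrier EAAT3, was at 8.34, 10.77 and 11.05 in normal against 5.60, 10.48 and 10.89 in tumor endothelium. Its difference of -1.06 (SE 1.42) was 0.63 without glioma replicate 1. Replicate 1 was the lowest in both groups, and without both the difference was -0.23. Slc1a2, which encodes the glutamate carrier GLT-1 and also marks astrocytes, was at 13.24, 11.95 and 12.22 in normal against 13.55, 10.28 and 13.09 in tumor endothelium (difference -0.16, SE 0.84), and was 0.85 without glioma replicate 2. Slc1a3, the astrocyte carrier GLAST, was at 9.72, 8.20 and 8.29 in normal against 7.90, 0 and 9.50 in tumor endothelium.

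Slc1a2 and Slc1a3 are also 2 of the 10 astrocyte markers used here. Of the other 8 markers 2, 7 and 7 were above 0 in normal against 6, 4 and 4 in tumor endothelium, with a summed log2 level of 10.59 to 12.28 in normal against 11.72 to 12.12 in tumor endothelium. Normal replicate 1 was the lowest in that sum, while Slc1a2 was lowest in glioma replicate 2. The markers did not share a direction. Gfap and Aqp4 were at 0 in all glioma libraries and in normal replicate 1. Gja1, which encodes a gap junction protein, was wholly higher in glioma. It read 9.85, 10.27 and 10.08 in normal against 11.22, 11.07 and 10.91 in tumor endothelium. The differences of Aldoc (-1.57, limma adjusted p = 0.875) and Gjb6 (-1.91, limma adjusted p = 0.875) were below 0. Those of S100b (2.32, limma adjusted p = 0.878) and Fgfr3 (1.90, limma adjusted p = 0.894) were above 0, but both genes were at 0 in normal replicate 1. S100b otherwise read 9.50 and 9.03 against 9.55, 6.57 and 9.38, and Fgfr3 9.82 and 10.06 against 5.80, 9.88 and 9.91. Over the tested markers of the whole list the median difference was -0.16, and -1.41 without normal replicate 1. The whole list includes Slc1a2 and Slc1a3, and the median of -0.16 is the difference of Slc1a2 itself. It is therefore not a separate measure to set beside these carriers. The part of astrocyte RNA in these values was not tested. In bulk libraries fewer cells of a type and less RNA per cell cannot be told apart. Slc1a4, the alanine, serine and cysteine carrier ASCT1, was at 7.97, 7.28 and 6.40 in normal against 8.28, 0 and 0 in tumor endothelium. Its difference of -4.46 (SE 2.88) became 0.10 with the shared floor, since all its values lie near or below that floor. Slc1a5, the glutamine carrier ASCT2, was at 0, 6.33 and 5.63 in normal against 6.75, 8.53 and 5.22 in tumor endothelium (difference 2.84, SE 2.58, limma adjusted p = 0.875).

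All 5 tested Slc6 carriers had a difference below 0, where 51.4% of all genes tested had one above 0, but none passed the limma test and none had groups that did not overlap. The shared sign did not hold with the shared floor, where Slc6a11 went from -2.34 to 0.13. Slc6a9 then went from -1.96 to -0.27, Slc6a8 from -3.81 to -1.33, and Slc6a6 was unchanged. Slc6a6, the taurine carrier of the blood-brain barrier, was at 11.13, 14.82 and 14.77 in normal against 12.10, 13.19 and 13.20 in tumor endothelium. Normal replicate 1 was the lowest of the 6, and the difference of -0.75 (SE 0.96) was -1.97 without it (limma adjusted p for all 6 libraries = 0.890). Slc6a8, the creatine carrier of the same barrier, read 0, 10.45 and 10.26 in normal against 0, 9.29 and 0 in tumor endothelium. Slc6a9, a glycine carrier, and Slc6a11, which takes up GABA, were each listed at 0 in glioma replicate 2. Slc6a9 was at 5.71 to 8.68 in the normal libraries, and Slc6a11 read 0, 8.03 and 7.83 in normal against 0, 0 and 8.82 in tumor endothelium. Of the other 15 Slc6 symbols, 8 were listed at 0 in all libraries and 7 were above 0 in some but did not meet the rule for testing, such as Slc6a4, the serotonin carrier, at 8.28 in normal replicate 1 alone.

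Proton-coupled Slc36 carriers were represented by Slc36a1, a lysosomal amino acid exporter, at 0, 9.18 and 9.31 in normal against 5.38, 8.11 and 6.14 in tumor endothelium. All glioma values lay below normal replicates 2 and 3 and above normal replicate 1, and the difference of 0.38 became -2.70 without normal replicate 1. Slc36a4 was above 0 in glioma replicate 2 alone, and Slc36a1os, Slc36a2 and Slc36a3 were at 0 throughout.

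**Figure D2:**
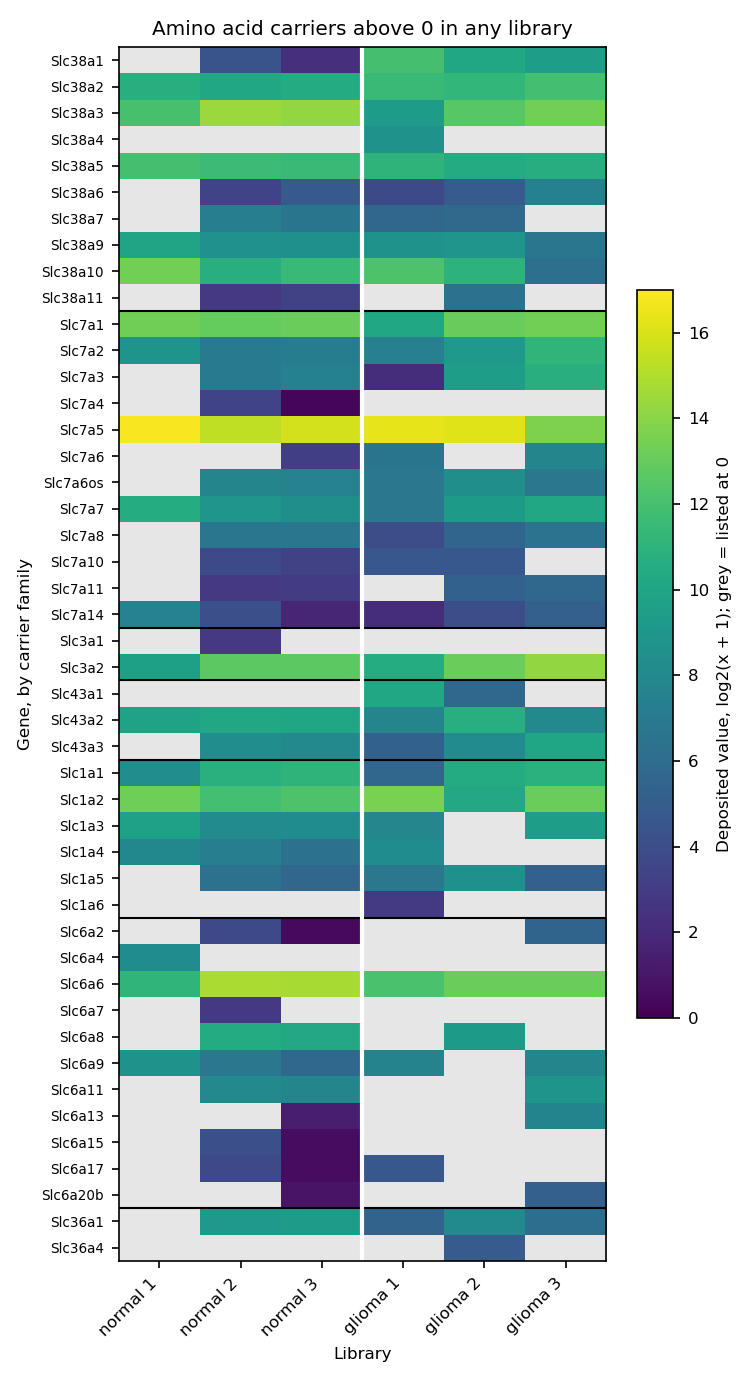
Deposited log2(x + 1) value (colour) of 46 of the 47 members above 0 in at least 1 library (rows, by family) in the 6 libraries (columns); grey cells are genes listed at 0. Over all 64 members normal replicate 1 has 20 above 0, the fewest, while the other libraries have 30 to 40.

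Over the 34 tested members the median difference was -0.60, beside 0.05 over all genes tested, with 15 differences above and 19 below 0. Over the 15 members above 0 in all libraries it was -0.75, beside -0.18 over all such genes. Without glioma replicate 1 the median over the members was 0.10, beside 0.12 over all genes. Without replicate 1 of both groups it was -0.55, beside -0.24 over all genes. With the shared floor it was -0.16 over the 29 members then tested, beside -0.014 over all genes. By family the medians were -0.79 for Slc38 (9 tested), 0.87 for Slc7 (11 tested), -1.06 for Slc1 (5 tested), -2.34 for Slc6 (5 tested) and 0.61 for Slc43 (2 tested), and none of these is a test. Without normal replicate 1, in which many members were listed at 0, they were -0.82 for Slc38, 0.04 for Slc7, -1.92 for Slc1, -2.64 for Slc6 and -0.81 for Slc43, beside -0.36 over all genes, so the Slc43 median changed sign. The Slc6 median of -2.34 is the difference of Slc6a11, which was 0.13 with the shared floor.

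**Figure D3:**
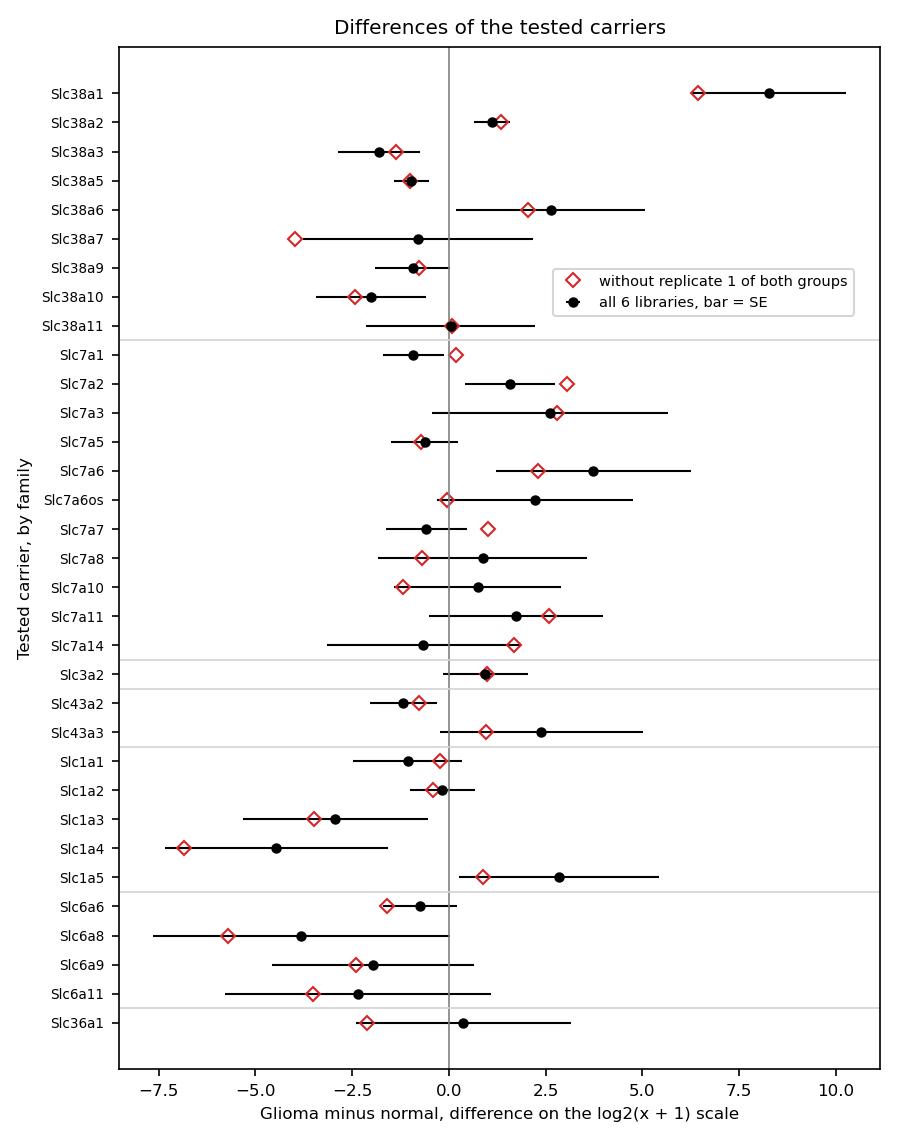
Glioma minus normal difference in log2(x + 1) (horizontal axis) of 33 of the 34 tested members (rows, by family); black points are the fit to all 6 libraries with the SE as a bar, and red diamonds the difference without replicate 1 of both groups. Slc38a1 is farthest from 0, the Slc6 carriers drawn all lie below 0, and several Slc7 members change sides.

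Replicate 1 was also compared with replicates 2 and 3 of its group. Of the 15 members above 0 in all libraries, 5 had their lowest value of the group in replicate 1 of both groups (Slc1a1, Slc3a2, Slc6a6, Slc38a3 and Slc43a2, 33.3%), beside 19.7% of all genes above 0 in all libraries. Another 4 had their highest value in replicate 1 of both groups (Slc1a2, Slc7a5, Slc38a5 and Slc38a10, 26.7%), beside 24.6% of such genes. With 15 members these shares are near those of all genes. The size of the deviation varied. For Slc3a2 replicate 1 minus the mean of the other two was -3.04 in normal and -3.15 in tumor endothelium, which is more than the difference between the groups, and for Slc38a5 the values were 0.45 and 0.53.

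**Figure D4:**
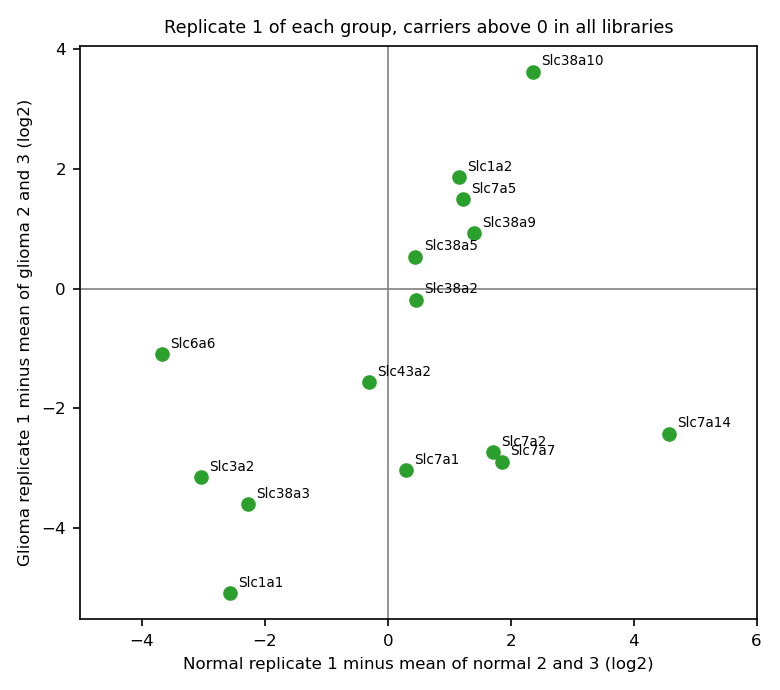
Deviation of replicate 1 from the mean of replicates 2 and 3 on the log2 scale, in normal (horizontal axis) and glioma libraries (vertical axis), for the 15 members above 0 in all libraries (points). Slc1a1, Slc3a2, Slc38a3 and Slc6a6 lie at the lower left, low in both replicate 1 libraries, and Slc38a10 at the upper right.

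Leaving libraries out changed which members were separated, with shares of all genes that changed likewise. Without replicate 1 of both groups, 8 members lay wholly higher and 9 wholly lower in glioma (23.5% and 26.5%), beside 24.6% and 30.9% of all genes. Slc38a1, Slc38a2, Slc3a2, Slc7a2, Slc7a3, Slc7a7, Slc7a11 and Slc38a6 were then higher, and those lower included Slc38a3, Slc38a5, Slc6a6, Slc6a8, Slc7a8 and Slc36a1. None passed the limma test, with a smallest adjusted p of 0.126. Without normal replicate 1, 3 members were wholly higher and 7 wholly lower (14.9% and 20.6% of all genes). Without glioma replicate 1 these counts were 7 and 3 (15.7% and 13.2% of all genes), without glioma replicate 2 they were 3 and 2 (11.6% and 11.2%), and without glioma replicate 3 they were 4 and 2 (12.3% and 10.4%).

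No endothelial marker and no marker of another cell type passed the limma test. Of the 15 endothelial markers 0 lay wholly higher and 1 wholly lower in glioma, beside 6.91% and 6.37% of all genes. The lower one was Egfl7, at 17.31, 17.62 and 17.62 in normal against 15.83, 17.07 and 15.56 in tumor endothelium. Sox2, a neural progenitor gene in the glioma and progenitor list, was at 0, 0 and 1.22 in normal against 7.92, 5.53 and 8.47 in tumor endothelium, so like Slc38a1 it was wholly higher in glioma. The other 4 markers of that list, Nes, Cd44, Vim and Pax6, overlapped. Of the 5 markers in that list 3, 3 and 5 were above 0 in normal against 5, 4 and 4 in tumor endothelium. Their summed log2 level was 11.79, 12.66 and 12.54 in normal against 12.59, 13.83 and 14.63 in tumor endothelium. Pax6 was at 0 in glioma replicates 2 and 3. Across the glioma libraries Slc38a1 was highest in replicate 1 and lowest in replicate 3. The summed level of 8 fibroblast markers followed that order, at 8.62, 6.66 and 5.99 in normal against 11.84, 9.46 and 7.98 in tumor endothelium, and so did that of 5 erythroid markers, at 13.86, 15.79 and 15.60 in normal against 18.65, 16.49 and 13.77 in tumor endothelium. The summed level of 8 neuron markers did not, at 8.94, 9.25 and 9.26 in normal against 12.82, 5.89 and 7.72 in tumor endothelium. The sum of the glioma and progenitor list ran the opposite way, rising from glioma replicate 1 to 3. So did the sums of pericyte and smooth muscle markers (13.32, 13.86 and 14.17 in glioma) and oligodendrocyte lineage markers (9.29, 10.05 and 10.87). The sum of choroid plexus and ependyma markers did likewise (7.47, 8.80 and 11.63). Sums of endothelial markers (17.94, 19.12 and 18.996 in glioma) and astrocyte markers (13.96, 12.17 and 13.76) followed neither order. Nor did that of microglia and macrophage markers (9.46, 8.001 and 13.53). With 3 glioma libraries few orders are possible, so a shared order is only a description. Of the neuron markers 2, 8 and 8 were above 0 in normal against 7, 2 and 2 in tumor endothelium, and of the fibroblast markers 2, 3 and 6 against 7, 4 and 2. Within the fibroblast list Fbln1 (3.12, 0 and 5.71 in glioma) and Slc6a13 (0, 0 and 7.66) were highest in glioma replicate 3. The part of tumor cells or of these other cells in the Slc38a1 values was not tested.

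Genes that sense, use or regulate amino acids were taken as lists beside the carriers, and no gene of them passed the limma test. Over all genes tested the median difference was 0.05, and -0.36 without normal replicate 1. The list of amino acid sensing and mTORC1 had 29 of 32 genes tested, with 2 wholly higher and 3 wholly lower, beside 6.91% and 6.37% of all genes, and a median of 0.24 (-0.60 without normal replicate 1). Rheb, the GTPase that activates mTORC1, was at 0, 7.33 and 7.56 in normal against 8.18, 9.43 and 10.70 in tumor endothelium. Of the GATOR complexes that restrain or free that pathway, Depdc5 was higher (0, 5.34 and 5.60 against 6.75, 6.89 and 6.12), and Mios (8.40, 8.501 and 7.80 against 6.65, 6.31 and 6.53) and Wdr59 (9.04, 9.69 and 9.27 against 2.22, 7.35 and 8.32) were lower in all glioma libraries. Fnip1, a partner of folliculin, was at 10.59, 10.19 and 10.16 in normal against 9.75, 9.65 and 9.78 in tumor endothelium.

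The list of the GCN2 and ATF4 response had 18 of 22 genes tested, 2 wholly higher and 0 wholly lower, beside 6.91% and 6.37% of all genes. Its median was 1.48, but 0.46 without normal replicate 1 and 0.29 with the shared floor. Psat1, an enzyme of serine synthesis, was at 8.45, 3.42 and 6.34 in normal against 9.77, 9.81 and 8.59 in tumor endothelium. Cebpb, a transcription factor that partners ATF4, was at 0, 9.33 and 9.33 in normal against 9.57, 9.36 and 10.81 in tumor endothelium, so replicates 2 and 3 of normal lay just below. Atf4 itself overlapped, at 13.67 to 14.60 in normal against 13.33 to 15.26 in tumor endothelium.

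Among genes of amino acid use, 20 of 25 were tested, 1 wholly higher and 2 wholly lower, beside 6.91% and 6.37% of all genes, with a median of 0.33 (-0.34 without normal replicate 1). Bcat2, the mitochondrial branched-chain aminotransferase, was at 0, 0 and 4.21 in normal against 8.26, 9.25 and 10.37 in tumor endothelium. Bckdha, a subunit of the dehydrogenase that acts after it, was at 8.90, 9.12 and 9.06 in normal against 6.89, 6.78 and 8.49 in tumor endothelium. Ggt1, the gamma-glutamyl transferase long used as a marker of brain capillaries, was at 8.49, 7.89 and 7.18 in normal libraries and listed at 0 in all glioma libraries.

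Carriers of amino acids or related compounds outside the set had 11 of 17 matched genes tested and none whose groups did not overlap (median -0.14, and -1.09 without normal replicate 1). Among genes that regulate or accompany carriers, 11 of 13 matched genes were tested, 2 wholly higher and 2 wholly lower, beside 6.91% and 6.37% of all genes (median 1.59, -0.70 without normal replicate 1 and 0.08 with the shared floor). These counts are small in every list. Nedd4, a ubiquitin ligase, was at 8.89, 9.91 and 9.73 in normal against 10.02, 11.11 and 12.40 in tumor endothelium. Basp1, a membrane-associated protein of growing neurons, was at 0, 4.51 and 3.42 in normal against 13.14, 7.44 and 7.40 in tumor endothelium. Bsg, the chaperone of monocarboxylate carriers and a marker of barrier endothelium, was at 16.77, 17.07 and 17.07 in normal against 15.68, 15.95 and 16.05 in tumor endothelium. Arl6ip1 was at 11.83, 12.01 and 11.95 in normal against 11.44, 11.35 and 11.06 in tumor endothelium.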

How the data were processed

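Libraries were built from 500 ng of total RNA with a Lexogen Quant-Seq kit, per the labels' protocols, and the submitters' processing notes list Bowtie2, edgeR and mm10 but no role for any of them. Neither the labels nor the headers give the counting tool, its use of strand or the normalization step. The deposited log2 values had the same maximum in each library and, back-transformed as x, lay within 0.02 of a multiple of 1 divided by 6, so they were read as log2(x + 1) after quantile normalization by the authors. The design foresaw normalized values, and limma 3.58.1 in R 4.3.3 was fitted to the 11862 genes with x of at least 1 in at least 3 libraries, with the group as the only term, a mean trend in the variance prior and Benjamini-Hochberg adjustment over all genes. The wrapper was tested on simulated data with a fixed spread and only genes above 0 in all libraries. That test checks the code and does not give the power in these libraries. Positions are from GENCODE M21 (GRCm38). Members, lists and tests were chosen with earlier results of these data known. Members above 0 in all libraries, members whose groups did not overlap and 11 chosen carriers were to be named with values, and other members named were chosen after their values were seen. Alternatives changed the filter, pseudocount, floor, centring, variance prior, replicates and block. One member is counted in the totals but is not reported here by name or drawn.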

Additional observations from a re-analysis of the deposited data

How the results depend on the processing

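No gene and no member passed the adjusted threshold under any of 16 alternatives, and the smallest adjusted p over all genes was 0.0587, without a mean trend and with a robust prior, where the smallest for a member was 0.215. Leaving out 1 library at a time gave 2 to 7 members wholly higher, 1 to 7 wholly lower and a median difference of -0.64 to 0.10. With only genes above 0 in all libraries 1 member was wholly higher, since Slc38a1 is then not tested. Without replicate 1 of both groups, an alternative chosen after seeing the data, 8 were wholly higher and 9 wholly lower. Of 19 named members, 11 kept their sign in every alternative run, among them Slc38a1 (3.10 to 9.37), Slc38a2 (0.93 to 1.34) and Slc38a5 (-1.15 to -0.82), whose groups did not overlap, so that leaving out libraries could not turn their sign. With 1 library left out at a time, differences ranged from -2.01 to 0.63 for Slc1a1, -0.79 to 0.85 for Slc1a2, -0.071 to 1.99 for Slc3a2, -1.51 to 0.10 for Slc7a1, -1.9996 to 0.87 for Slc7a14, -1.12 to 0.25 for Slc7a5 and -1.27 to 0.39 for Slc7a7. Slc1a4 turned to 0.10 with the shared floor. Without replicate 1 of both groups Slc7a1 was at 0.20, Slc7a14 at 1.68 and Slc7a7 at 1.00. The causes of these changes were not tested. Deviations of same-numbered libraries correlated weakly across genes (r = 0.13, 0.03 and 0.06), and not every library correlated best with its own number. These correlations cannot settle whether the number pairs the libraries. With the replicate block 0 genes passed, the members' median stayed at -0.60 and 610 genes, against 509, had an unadjusted p under 0.05. A term for replicate 1, also chosen after seeing the data, gave 1041 such genes, and 0 passed the adjusted threshold. Depth is unknown, so what a value of 0 allows cannot be given.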
